A study of Mus musculus with 8 samples.

Results

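Whole mouse skin includes a sheet of skeletal muscle below the dermis and the fat, the panniculus carnosus, and the signals of 38 skeletal muscle genes were followed on arrays of whole skin. The 38 genes were given as a list, each was found through the RefSeq accession of its probes, and the brightest probe stood for a gene with several. They are 38 of the 21154 genes that could be named on the array. All 38 had a probe that was well above background on each of the 8 arrays.

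A muscle fibre shortens when the myosin heads of its thick filaments pull on the actin of its thin filaments. Calcium released from an internal store lets this happen by moving the troponin and tropomyosin on the thin filament. Z-discs anchor the filaments, and fast and slow fibres differ in the isoforms of myosin and troponin they make and in how far they rely on glycolysis or on mitochondria. The skin muscle of rodents twitches the skin and is known as a mainly fast muscle.

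The study compared female mice of the genotypes CD109+/+ and CD109-/-, both on the FVB/N background, with or without DMBA, a skin carcinogen, and asked what loss of CD109 changes in the skin response to it. CD109-/- mice lack CD109, a membrane-anchored glycoprotein, in all cells. RNA was taken 24 h after DMBA, and the untreated groups carry acetone, the solvent of DMBA, in one label and no DMBA in another. Each of the 4 groups, which are CD109+/+ DMBA, CD109-/- DMBA, CD109+/+ untreated and CD109-/- untreated, had 2 arrays. No label gives an age or says that the 2 came from separate animals, so p-values measure only the spread between these samples, which may be technical. The 8 arrays lay on 1 slide with all DMBA arrays in 1 row and all untreated arrays in the next. Slide row and treatment thus cannot be told apart. In both rows the arrays labelled CD109+/+ were in columns 1 and 2 and those labelled CD109-/- in columns 3 and 4. Slide column and genotype as labelled thus cannot be told apart either. Signals are intensities, and the log2 signal of a gene is its log2 intensity relative to the 75th percentile of the array. That percentile lay between 382 and 626, and between 63.6% and 67.0% of spots were well above background. The small number of arrays limits the precision.

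The signal of Cd109 itself went against 2 labels. It was −6.49 on the array labelled CD109+/+ untreated replicate 2 and 1.66 on the array labelled CD109-/- untreated replicate 1, whereas the other 6 arrays held between 0.84 and 2.06 where labelled CD109+/+ and between −8.11 and −7.70 where labelled CD109-/-. Whether the probe reads the part of Cd109 that was deleted was not determined. Results are therefore given with the labels as deposited, without these 2 arrays, and with the 2 arrays exchanged between the genotypes. The exchange rests on the values of the arrays, so its p-values describe arrays divided by their Cd109 signal, and they carry no independent weight for the genotype. Below, 4 arrays are said to have a high Cd109 signal and 4 a low one, which is a description of the arrays and not a group of the study.

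Krt5 and Krt14, keratins of the basal epidermis, and Col1a2 and Dcn of fibroblasts were well above background on all 8 arrays, as the label skin implies. The defining markers of skeletal muscle were too, among them Acta1, Ckm and Ryr1, and another 55 of 60 measured skeletal muscle genes outside the list. Pax7, a transcription factor of the stem cells of muscle, was well above background on 4 arrays and Myf5, another early muscle factor, on none. Fewer muscle fibres in a sample and less muscle RNA per fibre cannot be told apart in whole skin.

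Of the skeletal myosin heavy chain genes, 6 lie in one row on chromosome 11, in the order Myh3, Myh2, Myh1, Myh4, Myh8 and Myh13, with no other protein-coding gene between them. After DMBA the genotypes overlapped for Myh2 and Myh1 and did not for Myh4 and Myh8, which follow them in the row, so the 250 bases before the start of these 4 are shown, from RefSeq (GRCm38.p6, plus strand). Capitals mark the motif TATAAA, the E-box CAGCTG that MyoD-type factors bind, and the MEF2 consensus, each searched on both strands. In the last 3 windows the MEF2 consensus holds a TATAAA of the other strand.
Myh2, chr11:67170777-67171026: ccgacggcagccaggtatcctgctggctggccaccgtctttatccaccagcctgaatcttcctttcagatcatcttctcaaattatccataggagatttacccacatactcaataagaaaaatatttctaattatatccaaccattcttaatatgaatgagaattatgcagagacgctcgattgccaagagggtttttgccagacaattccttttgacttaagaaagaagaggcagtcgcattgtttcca
Myh1, chr11:67199852-67200101: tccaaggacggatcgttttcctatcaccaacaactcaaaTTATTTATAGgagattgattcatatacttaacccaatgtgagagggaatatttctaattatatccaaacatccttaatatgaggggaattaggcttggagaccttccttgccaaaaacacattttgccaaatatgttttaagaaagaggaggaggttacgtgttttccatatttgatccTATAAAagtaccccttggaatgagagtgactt
Myh4, chr11:67237562-67237811: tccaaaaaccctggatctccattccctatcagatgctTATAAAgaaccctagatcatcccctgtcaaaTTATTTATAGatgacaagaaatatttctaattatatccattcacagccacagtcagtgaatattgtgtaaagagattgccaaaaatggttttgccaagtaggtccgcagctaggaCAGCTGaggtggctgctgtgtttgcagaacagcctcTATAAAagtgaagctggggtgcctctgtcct
Myh8, chr11:67276874-67277123: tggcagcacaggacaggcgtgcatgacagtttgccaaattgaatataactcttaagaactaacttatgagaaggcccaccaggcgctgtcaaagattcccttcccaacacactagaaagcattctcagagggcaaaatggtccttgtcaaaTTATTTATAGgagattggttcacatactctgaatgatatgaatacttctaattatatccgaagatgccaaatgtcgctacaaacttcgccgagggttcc
The window of Myh2 holds none of the 3 motifs. In the other 3 windows the same 10 letters fill the MEF2 consensus, starting 211 bases before the start of Myh1, 182 before that of Myh4 and 99 before that of Myh8. A CAGCTG was found in the window of Myh4, 67 bases before its start, and in none of the others. Promoter windows were at hand for 30 of the 38 genes. CAGCTG was in the windows of 14 of these 30 genes, or 43.2% of their 37 windows, against 13% of all 32851 windows. The MEF2 consensus was in 13.5% of the 37 windows against 2.92% of all, and TATAAA in 21.6% against 12.4%. A match of letters is a description of sequence and not a binding site.

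The 38 genes varied more between arrays than the array as a whole. The gap between a gene's highest and lowest array had a median of 2.57 on the log2 scale, against 1.07 over all 36917 probes tested. It ran from 1.07 for Tnnt1, the slow form of troponin T, to 7.73 for Myh4, the myosin of fast IIB fibres. No gene had a gap under 1, 11 lay between 1 and 2, 16 between 2 and 3, 9 between 3 and 5, and 2, Myh4 and Nmrk2, above 5.

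**Figure D1:**
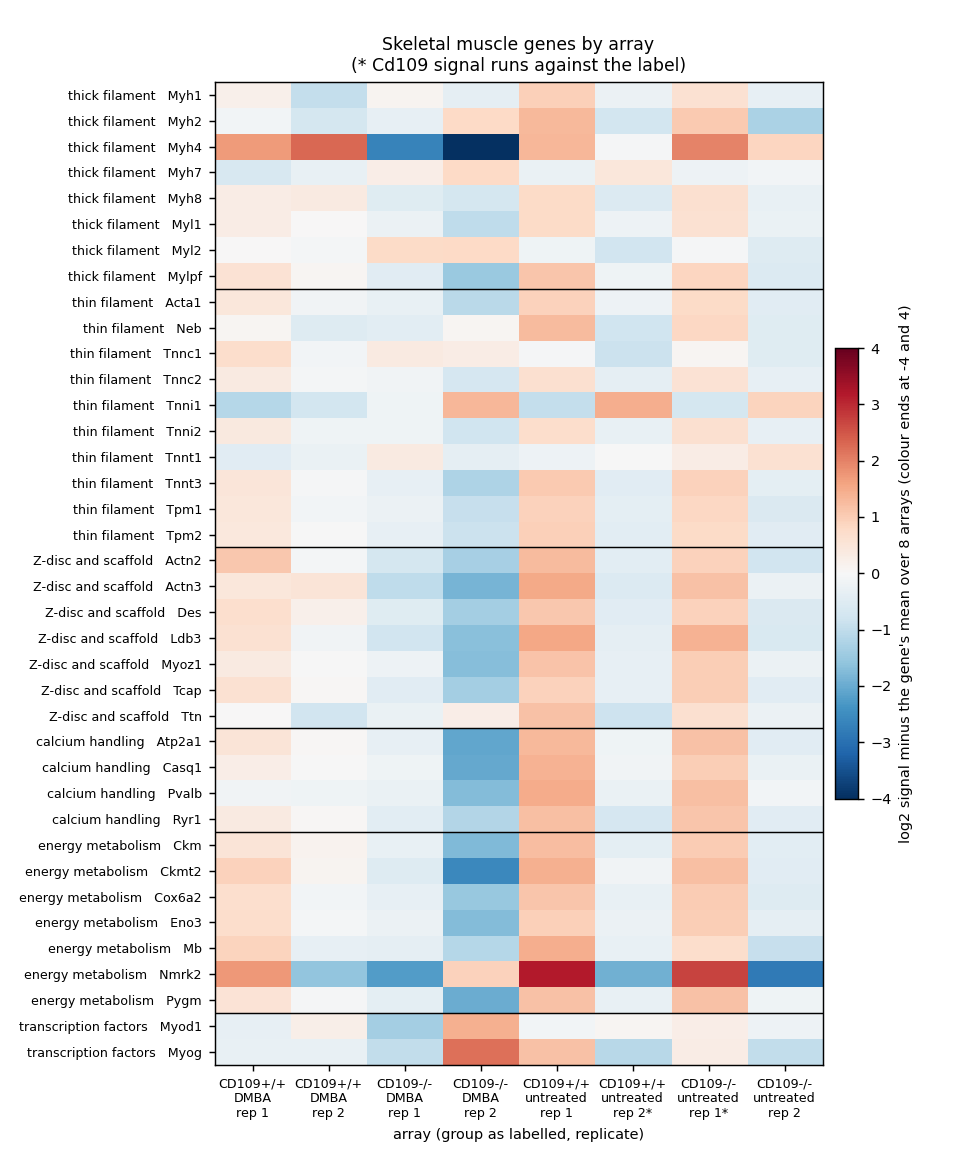
Log2 signal of the 38 skeletal muscle genes (rows, by role) on the 8 arrays (columns, as labelled), minus each gene's mean over the 8 arrays, as colour from blue (lower) to red (higher), with asterisks on the 2 arrays whose Cd109 signal runs against the label. The 2 arrays labelled untreated replicate 1 are red for most genes, and the array of CD109-/- DMBA replicate 2 is blue for the genes of calcium handling and of energy metabolism other than Nmrk2, and red for Myog and Myod1. Myh4 on that array lies past the end of the colour scale.

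Most of the genes followed one order of the arrays. The array labelled CD109+/+ untreated replicate 1 was the highest for 28 of the 38 genes, as it was for 10.4% of all probes tested. CD109-/- DMBA replicate 2 was the lowest for 26, as it was for 21.1% of all probes. In 34 of the 38 genes both arrays labelled untreated replicate 1 lay above both labelled replicate 2, which held for 32.7% of all probes, and the exceptions were Myh7, Tnni1, Tnnt1 and Myod1. The replicates of a group have no order, and the replicate 1 arrays are those with a high Cd109 signal.

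In the thick filament, Myh8 (perinatal myosin) and Myl1 (the fast alkali light chain) were the brightest, by the brightest probe of each gene. A second probe of Myh8 was much dimmer, between −0.99 and 0.89 over the 8 arrays, and one of Myl1 lay between 1.58 and 4.51. Myh8 had a log2 signal of 7.79 and 7.86 on the CD109+/+ DMBA arrays, 7.01 and 6.81 on the CD109-/- DMBA arrays, 8.25 and 6.94 on those labelled CD109+/+ untreated, and 8.13 and 7.19 on those labelled CD109-/- untreated (replicates 1 and 2 in this order, here and below). For Myl1 these were 7.77 and 7.49, then 7.25 and 6.45, then 8.23 and 7.25, and 8.09 and 7.22. Both genes lay lower on each of the 4 arrays with a low Cd109 signal than on each of the 4 with a high one. This held for 12.8% of all probes.

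Myh4 differed more between the DMBA groups than any other of the 38 genes. Its log2 signal was 7.01 and 7.61 in CD109+/+ skin after DMBA and 2.65 and −0.12 in CD109-/- skin after DMBA, which gives 7.31 ± 0.42 and 1.27 ± 1.96 (SD, n = 2 arrays each). The arrays labelled CD109+/+ untreated held 6.63 and 5.26 and those labelled CD109-/- untreated 7.29 and 6.18. The 2 arrays of CD109-/- DMBA skin were thus far below the other 6, which all lay above 5.

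The other adult fast myosins did not share this gap. Myh1 (IIX fibres) was 6.96 and 5.79 in CD109+/+ and 6.84 and 6.39 in CD109-/- skin after DMBA, 7.69 and 6.51 on the arrays labelled CD109+/+ untreated, and 7.35 and 6.40 on those labelled CD109-/- untreated. Myh2 (IIA fibres) was 4.74 and 4.15, then 4.51 and 5.66, then 6.14 and 4.11, and 5.90 and 3.57. The DMBA groups overlapped for both.

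Myh7, the myosin of slow fibres, ran the other way, at −5.08 and −4.74 in CD109+/+ and −4.20 and −3.67 in CD109-/- skin after DMBA, with −4.71 and −4.0, and −4.65 and −4.56 on the untreated arrays. Myl2, the regulatory light chain of slow fibres, was −4.04 and −4.13, then −3.28 and −3.25, then −4.23 and −4.83, and −4.09 and −4.58. Both were higher on the 2 CD109-/- DMBA arrays than on the 2 CD109+/+ DMBA arrays, as 41.7% of all probes were. Both were also dim, between −5.08 and −3.25 on all 8 arrays, though well above background. The part of array scaling in these dim signals was not tested.

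**Figure D2:**
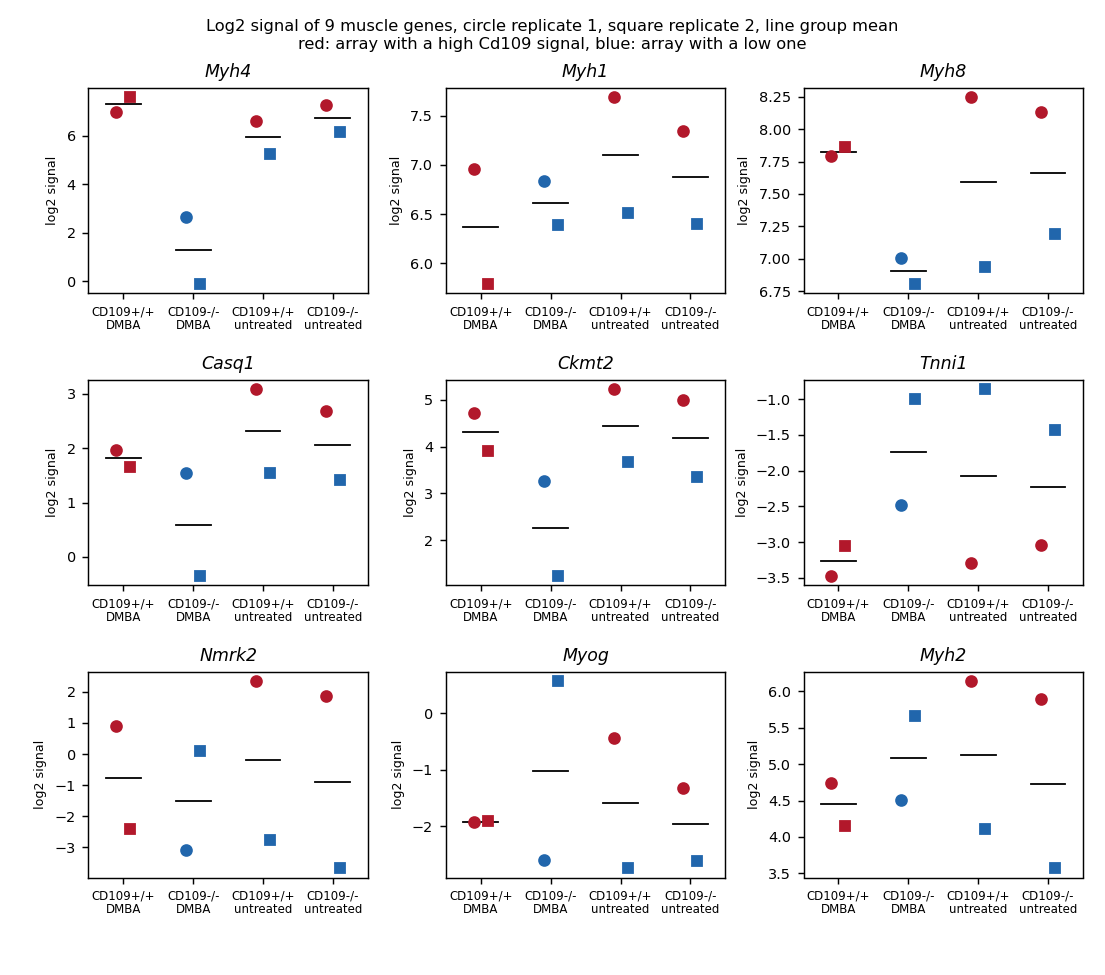
Log2 signal (vertical axis, relative to the array's 75th percentile) of 9 muscle genes in the 4 groups as labelled, with circles for replicate 1, squares for replicate 2, a line for the mean of 2 arrays, red for arrays with a high Cd109 signal and blue for a low one. Myh4 is at 2.65 and −0.12 in CD109-/- skin after DMBA and above 5 elsewhere, and Myh8 is higher and Tnni1 lower on all 4 red arrays than on all 4 blue ones.

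In the thin filament, Tnnc2 (fast troponin C) was at 8.82 and 8.37 in CD109+/+ and 8.30 and 7.80 in CD109-/- skin after DMBA, 9.09 and 8.11 on the arrays labelled CD109+/+ untreated, and 9.04 and 8.12 on those labelled CD109-/- untreated. Tnni2 (fast troponin I) was at 8.53 and 7.96, then 7.97 and 7.33, then 8.85 and 7.85, and 8.79 and 7.81. Tnnc2 separated the DMBA groups, as 29.8% of all probes did in this direction, and Tnni2 missed doing so by 1 array.

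Tnni1, the slow troponin I, was the mirror image. It was at −3.48 and −3.05 in CD109+/+ and −2.49 and −0.99 in CD109-/- skin after DMBA, −3.29 and −0.86 on the arrays labelled CD109+/+ untreated, and −3.04 and −1.44 on those labelled CD109-/- untreated. It lay higher on all 4 arrays with a low Cd109 signal than on all 4 with a high one, and so did Myh7. The 5 slow fibre genes as a group (Myh7, Myl2, Tnnc1, Tnni1, Tnnt1) included none that was lower in this way, against 9 of the 13 fast fibre genes, where 12.8% of all probes were lower and 14.7% higher. The slow genes were also much dimmer, with a median log2 signal between −4.56 and −3.25 on the arrays, against between 3.89 and 6.82 for the fast genes. The difference between the slow and the fast genes was not tested, and neither was the part of array scaling in it.

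Among the genes of the Z-disc, Tcap (telethonin, which caps titin) was at 7.16 and 6.60 in CD109+/+ and 6.11 and 5.20 in CD109-/- skin after DMBA, 7.46 and 6.23 on the arrays labelled CD109+/+ untreated, and 7.54 and 6.10 on those labelled CD109-/- untreated. Ttn, the titin spring itself, was at 4.18 and 3.41, then 3.89 and 4.42, then 5.34 and 3.32, and 4.80 and 3.94, with overlapping DMBA groups. This holds for its brightest probe, and dimmer ones are given below. The other 5 genes (Actn2, Actn3, Des, Ldb3 and Myoz1) separated the DMBA groups as Tcap did, lower in CD109-/- skin. So did 29.8% of all probes.

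Calcium handling gave 4 genes, all lower on both CD109-/- DMBA arrays than on both CD109+/+ DMBA arrays, as 29.8% of all probes were. Pvalb (parvalbumin, the calcium buffer of fast fibres) was at 5.49 and 5.44 in CD109+/+ and 5.34 and 3.89 in CD109-/- skin after DMBA, 7.12 and 5.34 on the arrays labelled CD109+/+ untreated, and 6.82 and 5.49 on those labelled CD109-/- untreated. Atp2a1 (the calcium pump of fast fibres) was at 3.86 and 3.41, then 3.01 and 1.27, then 4.66 and 3.19, and 4.52 and 2.90. The lowest value of each was that of CD109-/- DMBA replicate 2.

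For energy metabolism, Eno3 (muscle enolase) was at 7.13 and 6.34 in CD109+/+ and 6.20 and 4.70 in CD109-/- skin after DMBA, 7.39 and 6.17 on the arrays labelled CD109+/+ untreated, and 7.39 and 6.05 on those labelled CD109-/- untreated. Cox6a2 (a muscle subunit of cytochrome c oxidase) was at 6.20 and 5.41, then 5.19 and 4.0, then 6.64 and 5.24, and 6.53 and 5.01. Ckm, Ckmt2, Mb and Pygm, which encode creatine kinases, myoglobin and glycogen phosphorylase, also lay lower on both CD109-/- DMBA arrays. The same order held for 29.8% of all probes.

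Nmrk2, a kinase that phosphorylates nicotinamide riboside on the way to NAD, was set apart by the spread within its groups. It was at 0.90 and −2.41 in CD109+/+ and −3.09 and 0.09 in CD109-/- skin after DMBA, 2.34 and −2.75 on the arrays labelled CD109+/+ untreated, and 1.87 and −3.67 on those labelled CD109-/- untreated. With the labels as deposited the SD of the 2 replicates lay between 2.25 and 3.91 in the 4 groups, and all groups overlapped. By Cd109 signal, the untreated arrays were at 2.34 and 1.87 where it was high and at −2.75 and −3.67 where it was low. The DMBA arrays overlapped in this split, at 0.90 and −2.41 against −3.09 and 0.09.

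The 2 transcription factors of muscle differentiation were dim but above background. Myog (myogenin) was at −1.92 and −1.91 in CD109+/+ and −2.60 and 0.57 in CD109-/- skin after DMBA, −0.44 and −2.74 on the arrays labelled CD109+/+ untreated, and −1.32 and −2.62 on those labelled CD109-/- untreated. Myod1 was at −4.09 and −3.53, then −5.12 and −2.34, then −3.87 and −3.69, and −3.48 and −3.97. For both, CD109-/- DMBA replicate 2 was the highest of the 8 arrays.

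CD109-/- DMBA replicate 2 therefore did not stand apart in one direction. It lay below replicate 1 of its group in 29 of the 38 genes and above it in 9 (Myh2, Myh7, Myl2, Neb, Tnni1, Ttn, Nmrk2, Myod1 and Myog), where 56.1% of all probes tested were above. Among other muscle genes, picked after their values were seen, this array was also the highest for Myh3 (embryonic myosin), at −1.37 against at most −3.99 elsewhere, for Myl4 (embryonic light chain), at 3.46 against at most 1.64, and for Chrnd (a subunit of the acetylcholine receptor), at −0.03 against at most −1.88. It was the lowest for the glycolytic gene Pgam2, at 2.97 against at least 4.33. Of the other developmental genes, Mymk (the fusion factor myomaker) had its lowest value on this array, at −3.15, and Actc1 (cardiac actin) and Chrng (the fetal subunit of the acetylcholine receptor) lay within the range of the other arrays, at −1.82 and −5.74. These values rest on 1 array.

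After DMBA, most of the 38 genes had a lower mean in the CD109-/- group, and none passed the test. Log2 fold changes were negative for 27 genes and positive for 11, with a median of −0.88, against a median of 0.12 over all probes tested. In 25 genes both CD109-/- arrays lay below both CD109+/+ arrays, which held for 29.8% of all probes, and in 3 (Myh7, Myl2 and Tnni1) both lay above, which held for 41.7%. By role, 4 of 8 thick filament, 5 of 10 thin filament, 6 of 7 Z-disc, 4 of 4 calcium and 6 of 7 energy genes were lower in this way, and neither of the transcription factors.

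The largest negative and the largest positive difference were those of Myh4, at −6.04 (SE 0.99, limma's adjusted p = 0.0862, with 4 of 4 array pairs lower), and of Tnni1, at 1.52 (SE 0.97, adjusted p = 0.34, higher in 4 of 4). With limma, 0 of the 38 genes passed an adjusted p under 0.05 in either direction, while 0.065% of all probes passed as lower and 0.0163% as higher. At an unadjusted p under 0.05 it was 4 (Myh4, Actn3, Myl2 and Myh7), against 26.1% of all probes. The methods' t-test, named in the paper for group comparisons in general, called 3 unadjusted (Myh8, Actn3 and Myl2), against 18.7% of all probes. It called 0 after Benjamini-Hochberg adjustment.

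**Figure D3:**
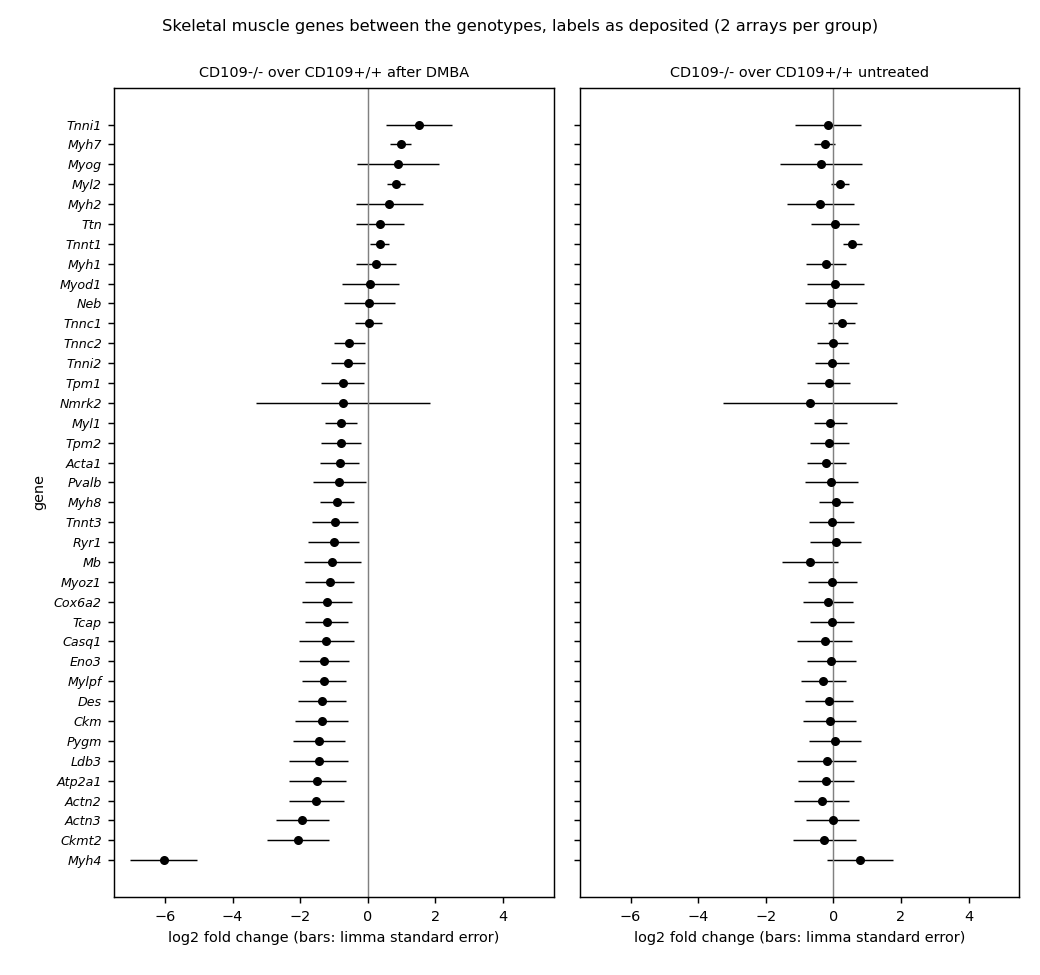
Log2 fold change of CD109-/- over CD109+/+ skin (horizontal axis) for the 38 genes (vertical axis, ordered by the change after DMBA), after DMBA on the left and untreated on the right, with points for the limma estimate from 2 arrays per group and bars for its standard error, labels as deposited. After DMBA 27 of 38 points lie below 0 with Myh4 at −6.04, and in untreated skin the points lie between −0.70 and 0.79.

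In untreated skin as labelled, the genotypes gave similar means with a wide spread inside each group. The median log2 fold change of the 38 genes was −0.10, against −0.02 over all probes, and the extremes were Nmrk2 at −0.70 (SE 2.57, adjusted p = 1) and Myh4 at 0.79 (SE 0.99, adjusted p = 1). With limma 0 genes passed, against 0.00542% of probes lower and 0% higher, and 0 had an unadjusted p under 0.05, against 2.15% of probes. The methods' t-test also called 0, unadjusted or adjusted.

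The arrays in doubt are both untreated, and this comparison moved most without them. With 1 array left in each untreated group, which is assumed to vary like the others, the median was −1.43 and 35 of 38 genes were lower in CD109-/- skin. No gene passed then, and no probe of the array did, and 11 had an unadjusted p under 0.05, against 13.7% of all probes. Nmrk2 was at −6.01 (SE 2.32, adjusted p = 0.387).

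DMBA over untreated in CD109+/+ skin gave a median of −0.13 over the 38 genes, against −0.03 over all probes. The extremes were Myh4 at 1.36 (SE 0.99, adjusted p = 0.655) and Tnni1 at −1.19 (SE 0.97, adjusted p = 0.692). None of the 38 passed with limma, against 0.141% of probes higher and 0.0379% lower, and 0 had an unadjusted p under 0.05, against 11.4% of probes. Without the 2 arrays in doubt the median was −0.80, 33 genes were lower and 0 passed, against 0.0704% of probes higher and 0.37% lower. In 31 of the 38 genes both CD109+/+ DMBA arrays lay below both untreated arrays with a high Cd109 signal, as did 32.3% of all probes.

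In CD109-/- skin, DMBA over untreated gave a median of −0.82, against 0.12 over all probes, with 32 genes lower and 6 higher. Myh4 was at −5.47 (SE 0.99, adjusted p = 0.245, lower in 4 of 4 array pairs), and Myl2 was at 1.07 (SE 0.27, adjusted p = 0.246, higher in 4 of 4). None passed with limma, against 0% of probes in either direction, and 2, Myh4 and Myl2, had an unadjusted p under 0.05, against 14.6% of probes. Without the 2 arrays in doubt the median was −0.33.

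The DMBA effect in CD109-/- minus that in CD109+/+ skin was −0.74 in the median, against 0.15 over all probes. It was largest for Myh4, at −6.83 (SE 1.39, adjusted p = 0.26), and on the other side for Tnni1, at 1.68 (SE 1.37, adjusted p = 0.538). None passed with limma, against 0% of probes, and 2, Myh4 and Myh7, had an unadjusted p under 0.05, against 15.9%. Without the 2 arrays in doubt the median turned to 0.44 while Myh4 stayed at −5.59 (SE 1.77, adjusted p = 0.333).

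Averaged over both treatments, the 38 genes had a median log2 fold change of −0.49 for CD109-/- over CD109+/+ skin, against 0.03 over all probes, with the extremes Myh4 at −2.63 (SE 0.70, adjusted p = 0.333) and Tnni1 at 0.68 (SE 0.69, adjusted p = 0.671). None passed with limma, against 0.00271% of probes lower and 0% higher, and 2, Myh4 and Myl2, had an unadjusted p under 0.05, against 12.4%. Averaged over both genotypes, DMBA over untreated gave a median of −0.50, against 0.04, with 34 of 38 genes lower. Its extremes were Myh4 at −2.05 (SE 0.70, adjusted p = 0.366) and Myl2 at 0.76 (SE 0.19, adjusted p = 0.27). None passed here either, against 0.0244% of probes higher and 0.00542% lower, and the same 2 genes had an unadjusted p under 0.05, against 11.5%.

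With the 2 arrays exchanged, the 38 genes split along the Cd109 signal. Averaged over treatments, 26 passed as lower in the arrays then grouped as CD109-/- and 2, Tnni1 and Myh7, as higher, against 14.6% and 16.6% of the 37144 probes tested, and 31 had an unadjusted p under 0.05, against 45.9% of probes. The lower ones included Myh8 at −1.02 (SE 0.10, adjusted p = 0.00498), Actn3 (the Z-disc actinin of fast fibres) at −1.83 (SE 0.21, adjusted p = 0.00673) and Myh4 at −3.64 (SE 0.64, adjusted p = 0.0152), and Tnni1 was at 1.77 (SE 0.35, adjusted p = 0.0199). In the single arrays, 23 genes were below on all 4 arrays with a low Cd109 signal and 2, Tnni1 and Myh7, above, against 12.8% and 14.7% of the 36917 probes.

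After DMBA, where the arrays compared are the same and the exchange alters the estimate of the spread, 6 genes passed as lower (Myh4, Myh8, Actn3, Des, Ldb3 and Ryr1) and Myl2 as higher, against 7.59% and 13.1% of probes, and 23 had an unadjusted p under 0.05, against 41.6%. In untreated skin 9 passed as lower (Myh2, Myh8, Neb, Tpm1, Tpm2, Actn3, Des, Ldb3 and Ryr1), against 3.84% of probes, and 0 as higher, against 5.13%. Unadjusted, 30 had a p under 0.05, against 29.8%. Among the 9 were Ryr1 (the calcium release channel) at −1.72 (SE 0.27, adjusted p = 0.0218) and Neb (nebulin, the ruler of the thin filament) at −1.68 (SE 0.30, adjusted p = 0.03). For DMBA over untreated, Myl2 passed as higher in the average over genotypes, at 0.76 (SE 0.10, adjusted p = 0.0363), against 1.11% of probes higher and 0.466% lower, and 10 genes had an unadjusted p under 0.05, against 21.2%. In CD109+/+ skin 0 genes passed, against 2.29% of probes higher and 1.22% lower, and 11 had an unadjusted p under 0.05, against 22.1%. In CD109-/- skin 0 passed, against 0.0135% and 0.00808%, and 5 had an unadjusted p under 0.05, against 17.5%. In the difference between the genotypes 0 passed, against 0.0162% and 0.0188%, and 5 had an unadjusted p under 0.05, against 21.1%.

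The other skeletal muscle genes ran with the 38. Of 60 measured, 38 lay below on all 4 arrays with a low Cd109 signal and 0 above, against 12.8% and 14.7% of all probes, and 58 were tested, of which 54 had a negative log2 fold change for CD109-/- over CD109+/+ skin after DMBA, with a median of −0.97. None of the 58 passed in any of the 7 comparisons as labelled. With the 2 arrays exchanged, 44 of 59 passed as lower between the genotypes averaged over treatments, 13 after DMBA and 16 in untreated skin, against 14.6%, 7.59% and 3.84% of probes, and Synpo2l passed as higher for DMBA in CD109+/+ skin, against 2.29%. Myom2 (myomesin of the M-band) was at 5.96 and 5.29 in CD109+/+ and 4.84 and 3.85 in CD109-/- skin after DMBA, 6.40 and 5.07 on the arrays labelled CD109+/+ untreated, and 6.45 and 5.11 on those labelled CD109-/- untreated.

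**Figure D4:**
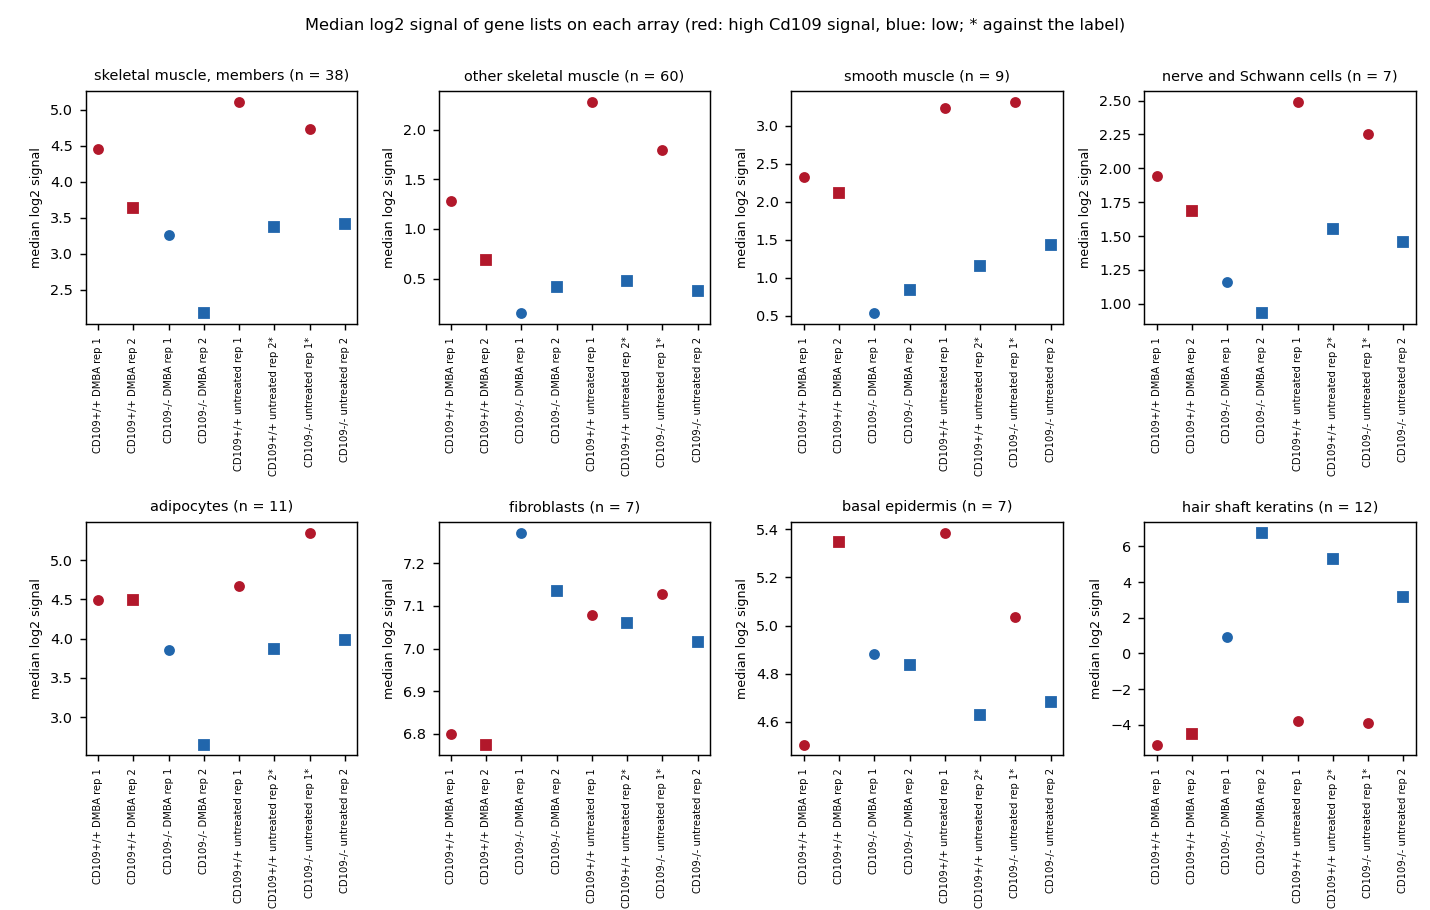
Median log2 signal (vertical axis) of 8 gene lists on each of the 8 arrays (horizontal axis, as labelled, with asterisks on the 2 arrays whose Cd109 signal runs against the label), red for a high and blue for a low Cd109 signal. Skeletal muscle, smooth muscle, nerve and adipocyte lists are higher on all red arrays than on all blue ones, hair shaft keratins are lower on all red arrays, and fibroblast and basal epidermis lists overlap.

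Markers of other tissues of the skin moved with the muscle genes. The median log2 signal of the 38 genes was between 3.63 and 5.11 where Cd109 was high (4 arrays) and between 2.17 and 3.41 where it was low (4 arrays). That of 9 smooth muscle genes was between 2.11 and 3.32 against between 0.53 and 1.43, with 6 of 9 separating the arrays in this direction, as 12.8% of all probes did. That of 11 adipocyte genes was between 4.49 and 5.35 against between 2.65 and 3.99, with 9 of 11 separating them against the same 12.8%.

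The 12 measured hair shaft keratin genes ran the opposite way, with a median from −5.11 to −3.77 where Cd109 was high and from 0.93 to 6.76 where it was low, and 11 of 12 separated the arrays, as 14.7% of all probes did in this direction. By the list medians, CD109-/- DMBA replicate 2 was the highest array for these keratins and the lowest for the 38 muscle genes and for the adipocyte genes. The 7 nerve and Schwann cell genes were between 1.68 and 2.49 against between 0.93 and 1.56, with 4 of 7 separating against 12.8%. The 7 fibroblast genes had medians between 6.77 and 7.27 over all 8 arrays, with no separation by their median, and those of the 7 basal epidermis genes lay between 4.50 and 5.39, with 2 of 7 and 3 of 7 genes lower on all arrays with a low Cd109 signal. The 6 measured neutrophil genes had medians from −0.45 to 1.43 where Cd109 was high and from −1.05 to −0.53 where it was low, with 2 of 6 separating. The 5 developmental muscle genes and the 7 cardiac genes overlapped in their medians, with 2 of 5 and 0 of 7 genes lower where Cd109 was low and 1 cardiac gene higher. The part of tissue composition in the differences of the muscle genes was not tested.

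Several probes were present for 11 of the 38 genes, and in 8 of these all probes gave the same sign for CD109-/- over CD109+/+ skin after DMBA. Neb was at 0.04 with its brightest probe, where the DMBA groups overlapped, and at −0.45 with the other, where both CD109-/- arrays were lower. Ttn was at 0.36 with its brightest probe and at 0.45, 1.12 and 1.34 with the others. For the probes at 1.12 and 1.34, both CD109-/- DMBA arrays lay above both CD109+/+ DMBA arrays. Tnnt3 (fast troponin T) separated the DMBA groups with its brightest probe and not with the other, at −0.14. Counts of separating genes rest on the brightest probes. Mylpf (the fast regulatory light chain) was at −1.30 with the brightest and at 0.87 with a dimmer one, and both are above background. Tpm1 (alpha-tropomyosin) had 5 probes with accessions of different transcripts, at −0.74 for the brightest, −0.67 for the next, and 0.12, 0.44 and 2.31 for the others. The value of Tpm1 here is therefore that of the transcripts its brightest probe reads, and genes of the myosin and tropomyosin families share sequence, so that cross-hybridization between their probes was not tested.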

How the data were processed

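RNA of whole skin was labelled with 1 dye and hybridized by the authors to Agilent arrays, which were read with Agilent Feature Extraction 11.5.1.1 per the file headers. The deposited intensity of a spot is background-subtracted and on a linear scale, with no normalization between arrays, and the deposited value table holds the same intensities times 1 constant per array, set in a way not given in the sources used here. Spots of a probe that were not flagged were averaged and the intensity was converted to log2, from which the log2 of the 75th percentile over the array's spots was subtracted. Of 55681 probes, 223 with all spots flagged on some array were left out. RefSeq accessions named 28026 of 29796 probes (94.1%), with symbols from the GRCm38.p6 annotation. The 36917 probes that both arrays of some group (1 or more) showed well above background were tested with limma 3.58.1 in R 4.3.3 on all 8 arrays, with 1 mean per group and Benjamini-Hochberg adjustment at 0.05. The test was checked on simulated data with known changes between the genotypes after DMBA. Of 50 changes of each size, it called 0 at a log2 size of 1, 19 at 2, 34 at 3 and 37 at 5. None was called in the wrong direction. The 38 genes and the gene lists were chosen with earlier results of these data known. Named with values were the 2 brightest genes of each role, the skeletal myosin heavy chains, Nmrk2, the genes with the largest differences in each comparison, and genes among the 4 brightest of other lists. All other named genes were chosen after their values were seen. Alternatives were quantile normalization, median centring, normexp with an offset of 50, other filters on dim probes, a block for the replicate number, and a fit without the arrays of other groups. Further ones were the methods' t-test and 2-way ANOVA, a trend with a robust variance, the value table, the mean of a gene's probes, leaving out each array, and both treatments of the arrays in doubt. The paper names that t-test and ANOVA for its comparisons in general. Its supplementary list of array genes that differ between the genotypes was chosen by log2 ratio.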

Additional observations from a re-analysis of the deposited data

Results flagged for a closer look

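In 2 genes the DMBA effect had opposite directions in the 2 genotypes in all array pairs, with the labels as deposited. For Myh4, DMBA minus untreated was 1.36 on the log2 scale in CD109+/+ and −5.47 in CD109-/- skin, so that the former exceeded the latter by 6.83. For Myh7 it was −0.56 in CD109+/+ and 0.67 in CD109-/- skin, a difference of −1.23. This rests on the direction of the pairs, and the share of all probes that met the same rule was not counted. The limma test of the same difference did not pass for either gene (adjusted p = 0.26 for Myh4 and 0.294 for Myh7). With the 2 arrays in doubt exchanged, the effects on Myh4 were 0.35 and −4.45 (adjusted p of the difference 0.14) and those on Myh7 were −0.23 and 0.35 (adjusted p = 0.41).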

How the results depend on the processing

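As labelled, 0 of the 38 genes passed in each of the 7 comparisons, and leaving out each array in turn kept every count at 0. The exchange of the 2 arrays in doubt changed the count to 7 after DMBA, 9 in untreated skin, 28 in the average over treatments and 1 in the average over genotypes. Without both arrays the counts stayed at 0. The methods' t-test without adjustment called 3 genes between the genotypes after DMBA and 1 for DMBA in CD109-/- skin, against 18.7% and 5.6% of all probes. The methods' 2-way ANOVA without adjustment called 1 each in the difference, the average over treatments and the average over genotypes, against 12.8%, 11.7% and 11.9%. With the replicate number as a block, 3 genes (Myh4, Eno3 and Ckmt2) passed as lower after DMBA, against 2.13% of all probes lower and 2.32% higher, and 0 in the other comparisons. The deviations of same-numbered arrays correlated between −0.0821 and 0.731 over the pairs of groups, so the numbers were not taken as a pairing. Median centring moved the median of all probes after DMBA from 0.12 to −0.24 and that of the 38 genes from −0.88 to −1.23, and it turned the median for DMBA in CD109+/+ skin from −0.13 to 0.04. Without the filter on dim probes the median of all probes after DMBA was 0.33. With normexp the largest positive change of the 38 genes between the genotypes after DMBA was 0.80, against 1.52 in the main processing. For DMBA averaged over genotypes it was 0.33, against 0.76. Some values that had not passed changed sign. Myh4 in untreated skin went from 0.79 to −0.45 without both arrays and to −1.25 with the exchange, Tnni1 in the difference from 1.68 to −0.33 and −0.49, and Tnni1 for DMBA in CD109+/+ skin from −1.19 to 0.027 without both. When each array was left out in turn, Nmrk2 after DMBA ranged from −2.40 to 0.91, against −0.74 with all arrays. In untreated skin it ranged from −3.46 to 2.07, against −0.70 with all arrays. The median of the 38 genes then ranged from −1.31 to −0.53 after DMBA, from −0.81 to 0.56 in untreated skin, from −0.80 to 0.57 for DMBA in CD109+/+ skin, from −1.57 to −0.33 for DMBA in CD109-/- skin, from −1.64 to −0.16 in the difference, from −0.89 to −0.12 in the average over treatments and from −0.89 to −0.19 in that over genotypes. Tnni1 after DMBA ranged from 0.78 to 2.27. For DMBA in CD109+/+ skin Tnni1 ranged from −2.40 to 0.027. The cause of these changes was not tested. With 2 arrays a group, differences within the replicate spread were not detectable.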
